A study of Mus musculus with 13 samples.

Results

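Genes of oxidative phosphorylation (OXPHOS) were followed across 13 RNA-seq libraries of mouse retinal cells sorted for Thy1.2, a surface protein used to enrich retinal ganglion cells (RGCs), the neurons whose axons form the optic nerve. The members were all protein-coding genes whose mouse symbol starts with Ndufa, Ndufb, Ndufc, Ndufs or Ndufv, is Sdha, Sdhb, Sdhc or Sdhd, or starts with Uqcr, with Cox and a digit from 4 to 8, with Atp5, or with mt-. This name rule found 106 of the 52550 genes counted, of which 93 lie in the nuclear genome and 13 in the mitochondrial genome. Another 37 genes that matched by name were not annotated as protein coding and were left out. The nuclear members comprised 44 genes of complex I, 4 of complex II, 8 of complex III, 20 of complex IV and 17 of complex V, and 8 of the complex I genes encode assembly factors (Ndufaf) in place of subunits.

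The development groups were uninjured wild type mice at postnatal day (P) 1 (n = 3 libraries), P14 (n = 3) and P21 (n = 2). The injured groups were adult Kdm6a f/f mice, in which loxP sites flank exon 3 of Kdm6a, a histone demethylase gene also named UTX. They received intravitreal AAV2-Cre (n = 2; genotype label UTX knockout) or AAV2-GFP (n = 3), and retinas were sorted 3 days after optic nerve crush. The labels place these mice at P42, whereas by the study's methods the crush followed the injection of already adult mice by 2 weeks, so that crush and sort fall later. All injured libraries, controls included, carried the floxed allele, a virus and the crush, and the promoter driving Cre and the number of animals per library are not given in the sources used here, so p-values measure the spread between libraries. Total counts ran from 30357454 to 38812917 in development and from 13637602 to 16070720 in the injured adults. Kdm6a itself read 111 and 113 CPM (counts scaled to library size) in the AAV2-Cre libraries and 102 to 123 CPM in the AAV2-GFP libraries, a gene-level count over all exons that does not check the loss of exon 3.

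RGC markers were highest at P1. Counts from 12 RGC markers took 0.759 to 0.835% of a library at P1, 0.116 to 0.131% at P14, 0.0357 to 0.0675% at P21 and 0.0285 to 0.0374% in the injured adults, where up to 2 of the 12 were at 0 in a library and 11 rod markers took 1.33 to 3.47%. Thy1 itself fell from 505 to 571 CPM at P1 to 70.0 to 92.2 CPM at P21, and read 17.3 to 38.7 CPM in the adults. In bulk samples, fewer cells of a type and less RNA per cell cannot be told apart, and the part of cell composition in the differences below was not tested.

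OXPHOS is the route by which mitochondria turn the energy of nutrients into ATP. Complexes I to IV pass electrons from NADH and succinate to oxygen and, except for complex II, pump protons, and complex V, the ATP synthase, lets the protons flow back to make ATP. All mitochondrially encoded proteins belong to this system, so that every complex except complex II is built from subunits of both genomes. RGCs are known for a high demand for ATP and are the cells that degenerate in optic neuropathies caused by mutations of mitochondrial complex I genes.

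The 13 mt- members differed in how far their reads could be assigned. Every stretch of 100 bases of a member's reference transcript was looked up in the transcripts of all other annotated genes (GENCODE M21, GRCm38). A shared stretch was found for 99.9% of the positions of mt-Co3, 99.5% of mt-Co2 and of mt-Atp6, 98.5% of mt-Nd4l and 97.6% of mt-Nd3, and these 5 genes matched a row of unprocessed pseudogenes on chromosome 1, chr1:24612407-24615565. The share was 60.8% for mt-Nd4 and 30.8% for mt-Co1, and 0 for mt-Nd1, mt-Nd5, mt-Nd6, mt-Cytb and mt-Atp8. For mt-Atp8 this 0 covers annotated transcripts alone. In the mitochondrial genome it lies between mt-Co2 and mt-Atp6, whose copies start at chr1:24614885 and end at chr1:24614651. The bases between these 2 copies belong to neither of them, so a copy of mt-Atp8 there would have been missed. The start of mt-Co2 and the matching bases of its copy Gm28661 (chr1:24614885-24615565) are shown to make plain that no base tells them apart. The 684 bases of mt-Co2 (chrM:7013-7696) aligned to the copy over 681 bases with 0 differences.

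mt-Co2: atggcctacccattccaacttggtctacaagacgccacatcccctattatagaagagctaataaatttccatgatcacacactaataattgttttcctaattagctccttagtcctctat
Gm28661: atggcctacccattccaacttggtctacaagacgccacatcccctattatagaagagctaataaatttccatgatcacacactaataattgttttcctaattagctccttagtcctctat

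At the edge of the copied block, mt-Co1 and its partial copy Gm29216 (chr1:24615706-24616197) matched at 98.8% of 492 aligned bases. All 6 differences lay in the stretch from base 1054 to base 1173 of mt-Co1, where capitals mark them.

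mt-Co1: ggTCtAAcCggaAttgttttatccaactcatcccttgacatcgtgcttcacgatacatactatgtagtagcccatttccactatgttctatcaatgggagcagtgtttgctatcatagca
Gm29216: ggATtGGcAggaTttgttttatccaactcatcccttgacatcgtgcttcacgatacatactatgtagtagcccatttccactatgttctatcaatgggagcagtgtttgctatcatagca

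The levels of the mt- members followed the same block of the mitochondrial genome. In CPM, mt-Co1 ranged from 3449 to 5031 CPM over the 8 development libraries, mt-Cytb from 2007 to 3689 CPM and mt-Nd1 from 1306 to 1594 CPM. In the same libraries mt-Co2 reached 0.88 to 1.71 CPM, mt-Co3 0.68 to 0.91 CPM, mt-Atp6 0.54 to 0.88 CPM and mt-Nd3 0.71 to 2.19 CPM. mt-Atp8, which lies between mt-Co2 and mt-Atp6, and mt-Nd4l, which follows mt-Nd3, stayed at or below 0.34 CPM. mt-Co1, mt-Co2 and mt-Co3 encode the 3 core subunits of the same enzyme. Counts of the 5 copied genes are uncertain for this reason, those of mt-Atp8 rest on few reads, and mt-Atp8 overlaps mt-Atp6, as mt-Nd4l overlaps mt-Nd4. How reads with more than 1 best place were counted is not given in the sources used here. The copy Gm28661 itself held 79 to 238 counts per library.

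**Figure D1:**
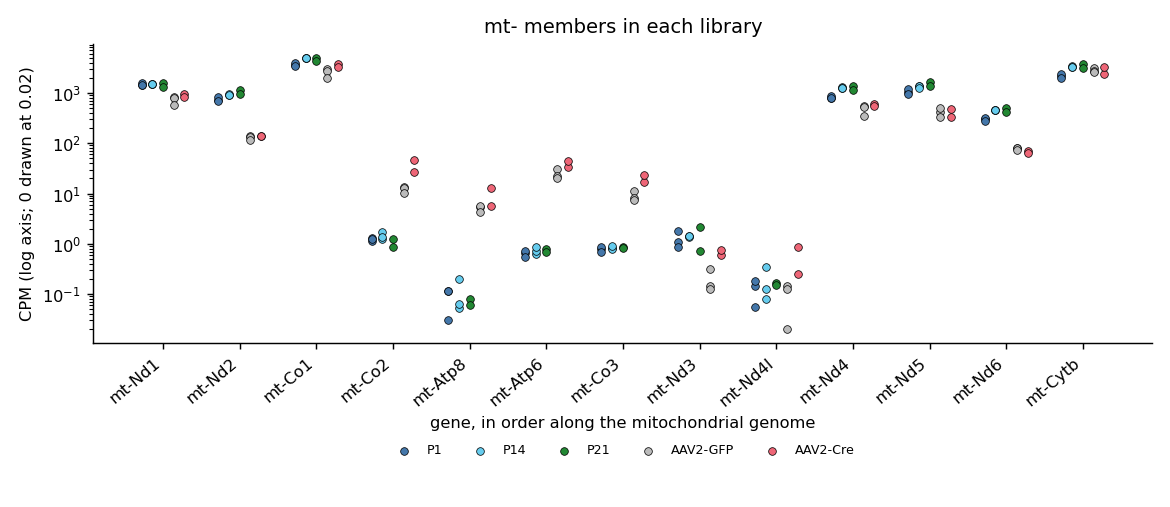
CPM of the 13 mt- members (log axis) in each of the 13 libraries, with genes in their order along the mitochondrial genome and 1 point per library coloured by group. The run from mt-Co2 to mt-Nd4l lies below 3 CPM in every development library, while mt-Nd1, mt-Nd2, mt-Co1, mt-Nd4, mt-Nd5, mt-Nd6 and mt-Cytb lie at 274 CPM or above there.

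Among nuclear members, the same lookup found 0 shared stretches for 65 of 93 genes and at least 20% for 12. The share was 86.4% for Atp5g2, 69.0% for Atp5l, 62.7% for Ndufab1, 48.1% for Atp5g1 and 44.4% for Cox7c, and values of these 5 genes carry the same uncertainty. For Ndufa13 (24.0%, shared with Tssk6) and Ndufb6 (28.2%, shared with Smim27) the shared sequence belongs to another gene of the same annotation that was counted apart.

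The share of each library taken by the 2 gene groups gives the first view of the module. The mt- share and the ratio below hold few counts of the copied mt- genes, whose counts are uncertain. They also include mt-Nd4 and mt-Co1, which are copied in part. mt-Co2 made up 0.00689 to 0.0132% of mt- counts in the development libraries and 0.164 to 0.535% in the injured adults. The mt- members took 0.955, 1.05 and 0.921% of counts in the P1 libraries, 1.44, 1.44 and 1.43% at P14 and 1.502 and 1.27% at P21. The nuclear members took 0.693, 0.673 and 0.687% at P1, 0.795, 0.774 and 0.814% at P14 and 0.697 and 0.717% at P21. Both shares were higher in every P14 library than in every P1 library. The mt- share was 1.47 times and the nuclear share 1.16 times that of P1. The exact permutation test (two-sided) gave p = 0.1 for both, the smallest value that 3 against 3 libraries allow, and an adjusted p of 0.3 over 12 tests. The ratio of mt- to nuclear counts was 1.38, 1.57 and 1.34 at P1, 1.81, 1.86 and 1.75 at P14 and 2.15 and 1.78 at P21, so that the P21 and P14 libraries overlapped. In the injured adults this ratio was lower, at 1.17, 1.21 and 1.02 with AAV2-GFP and 1.21 in both AAV2-Cre libraries. The part of the copied genes in these shares and ratios, within and between the datasets, was not tested.

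**Figure D2:**
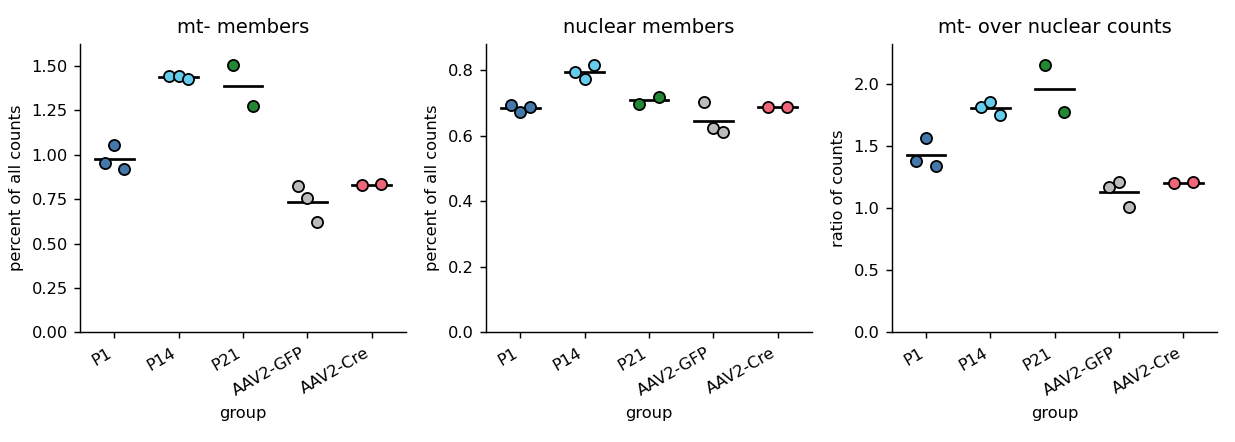
Percent of all counts from mt- members (left) and nuclear members (middle) and the ratio of the 2 (right) in each library, with 1 point per library and a bar at the group mean. The 3 P14 libraries lie above the 3 P1 libraries in all panels, and the ratio is lowest in the injured adults. The mt- share and the ratio hold few counts of the copied mt- genes, whose counts are uncertain.

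P1 and P14 were compared first, to ask how the OXPHOS transcripts change between newborn and eye-opened retina. Of the 89 nuclear members tested, 37 rose, 20 fell and 32 were not called by edgeR's quasi-likelihood test (Benjamini-Hochberg adjusted p under 0.05 over all 20890 genes tested), where 33.6% of all genes rose and 33.6% fell. Risers thus made up more and fallers less of the nuclear members than of all genes tested, a difference that was not tested. Most changes were small. Only 2 nuclear members, Ndufa4l2 and Cox4i2, also passed a log2 fold change of 1 in either direction, a size reached with a call by 35.0% of all genes. The median log2 fold change was 0.11 over nuclear members and -0.01 over all genes. Of the 11 mt- members tested, 6 rose and 0 fell, with a median of 0.28.

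The mitochondrial rise lay in genes with high counts. mt-Nd4, a proton-pumping core subunit of complex I whose sequence is copied in part, read 800, 880 and 790 CPM at P1 and 1298, 1262 and 1270 CPM at P14. The groups did not overlap, and the log2 fold change was 0.63 (SE 0.06, adjusted p = 1.02e-05). mt-Cytb, the only mitochondrially encoded subunit of complex III, rose from 2172 ± 182 to 3341 ± 28.4 CPM (SD, n = 3 each), and mt-Nd6 rose from 296 ± 20.4 to 456 ± 6.31 CPM. mt-Nd6 lies on the other strand of the mitochondrial genome and the library kit does not mark strand, so that reads opposite to it cannot be told apart from it. mt-Co1 rose by 0.43 on the log2 scale, mt-Nd5 by 0.34 and mt-Nd2 by 0.28. mt-Nd1 read 1405 to 1561 CPM at P1 and 1499 to 1525 CPM at P14, with a log2 fold change of 0.05 (SE 0.07). Without the 6 genes that share at least 50% of their stretches with a copy, 5 of 6 tested mt- members rose.

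Within complex I, 12 of 29 accessory subunits rose and 3 fell, 3 of 7 nuclear core subunits rose and 2 fell, and 4 of 8 assembly factors fell and 1 rose. Counts per complex at P14 against P1, here and below, stand beside 33.6% of all genes that rose and 33.6% that fell. Differences between complexes or roles were not tested. Ndufa13, an accessory subunit also known as GRIM-19, read 65.7, 57.8 and 62.8 CPM at P1 and 99.9, 95.1 and 99.5 CPM at P14 (log2 fold change 0.66, SE 0.06, adjusted p = 3.65e-06). Ndufv3, an accessory subunit of the NADH-oxidising arm, rose from 75.0 ± 3.33 to 109 ± 1.74 CPM. The assembly factor Ndufaf4 went the other way, from 28.9, 28.6 and 25.6 CPM to 16.8, 18.7 and 16.4 CPM (log2 fold change -0.68, SE 0.08, adjusted p = 5.51e-05). Ndufaf5, also an assembly factor, fell by 0.50 on the log2 scale.

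In complex II, which links the citric acid cycle to the respiratory chain, the 4 subunits split. Sdha, the flavoprotein that oxidises succinate, read 162, 165 and 141 CPM at P1, 231, 220 and 220 CPM at P14 and 263 and 238 CPM at P21. It was higher in each older library than in each P1 library (log2 fold change 0.52 at P14, SE 0.07, adjusted p = 7.37e-05). Its partner Sdhb, the iron-sulfur subunit, fell by 0.25 at P14 (SE 0.07, adjusted p = 0.0136), from 94.7, 87.9 and 91.0 CPM to 78.7, 72.5 and 78.9 CPM. Of the membrane anchors, Sdhd rose by 0.17 (SE 0.06), and Sdhc had a log2 fold change of 0.05 (SE 0.06, adjusted p = 0.455).

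In complex III, 5 of 8 members rose and 1 fell. The small subunits Uqcrh, Uqcr10 and Uqcr11 rose by 0.57, 0.49 and 0.70 on the log2 scale (SE 0.06, 0.05 and 0.08). Uqcrh read 86.3, 78.5 and 81.4 CPM at P1 and 125, 115 and 127 CPM at P14. Uqcrfs1, the Rieske iron-sulfur protein that carries the catalytic electron transfer, fell from 110 ± 2.61 to 88.1 ± 2.96 CPM (log2 fold change -0.32, SE 0.05, adjusted p = 0.000184). Uqcrc1, a core protein with the highest CPM among the nuclear members of the complex, read 162 to 172 CPM at P1 and 147 to 158 CPM at P14, and was not called.

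In complex IV, 3 of 11 common subunits rose and 5 fell. Cox8a rose from 115 ± 6.54 to 163 ± 8.49 CPM, Cox4i1 by 0.21 and Cox6c by 0.17 on the log2 scale. Ndufa4, once assigned to complex I and now known as a complex IV subunit, fell from 119, 114 and 121 CPM to 89.3, 86.1 and 89.9 CPM (log2 fold change -0.42, SE 0.06, adjusted p = 9.01e-05). Cox6a1 fell by 0.35, Cox7a2 by 0.35, Cox5a by 0.33 and Cox6b1 by 0.23. In complex V, 8 of 17 members rose and 4 fell. Atp5o, the OSCP subunit that ties the catalytic head to the stalk, fell from 160, 154 and 163 CPM to 117, 109 and 120 CPM (log2 fold change -0.46, SE 0.05, adjusted p = 2.1e-05). The c-ring genes Atp5g1, Atp5g2 and Atp5g3, which encode the same mature protein behind different targeting peptides, took different courses. Atp5g2 rose by 0.55, Atp5g1 fell by 0.24 and Atp5g3 had a log2 fold change of -0.06 with no call, although shared sequence limits the first 2. Atp5b, the catalytic beta subunit and the nuclear member with the highest CPM, read 801 to 817 CPM at P1 and 837 to 863 CPM at P14 and was not called.

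**Figure D3:**
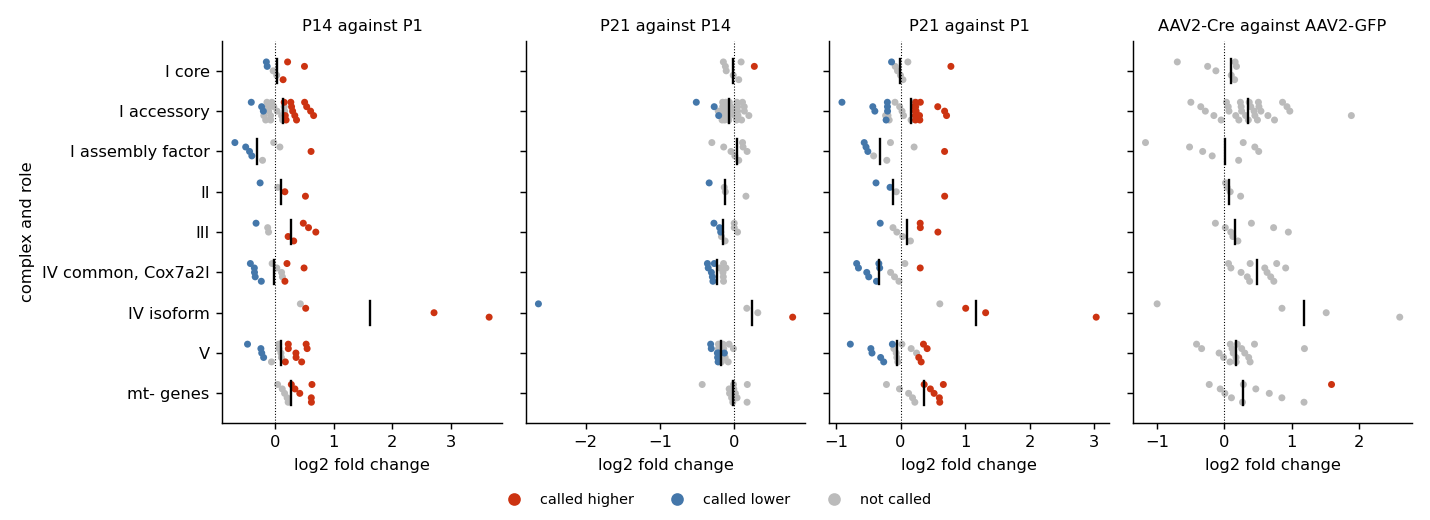
Log2 fold change of each tested member, by complex and role, in the 4 comparisons, with red points called higher, blue called lower, grey not called and a bar at the median of each row. Complex IV isoforms reach 3.65 at P14 against P1, the common subunits stay much closer to 0, and for AAV2-Cre against AAV2-GFP a single mt- member is called.

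The largest changes belonged to 2 complex IV isoforms that replace common subunits in certain tissues or in low oxygen. Ndufa4l2, a paralog of Ndufa4 known as a hypoxia-induced gene, read 4.02, 4.86 and 7.36 CPM at P1, 71.0, 66.4 and 66.7 CPM at P14 and 10.7 and 11.1 CPM at P21. P14 stood apart from both other ages. Its log2 fold change was 3.65 at P14 against P1 (SE 0.17, adjusted p = 6.16e-08) and -2.64 at P21 against P14 (SE 0.19, adjusted p = 1.66e-05). Pericyte and smooth muscle markers moved alongside. The 10 markers took 0.00943 to 0.0336% of counts at P1, 0.417 to 0.464% at P14 and 0.0602 to 0.0903% at P21, none of them at 0, and Rgs5 alone read 45.0 to 201 CPM, 2294 to 2534 CPM and 269 to 462 CPM. Their part in the result was not tested.

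Cox4i2, the isoform of subunit 4 linked to low oxygen and known from lung and vessel wall, read 22.0, 19.4 and 9.85 CPM at P1, 115, 103 and 117 CPM at P14 and 125 and 154 CPM at P21. Unlike Ndufa4l2 it was not lower at P21 than at P14 (log2 fold change 2.71 at P14 against P1, SE 0.24, adjusted p = 4.23e-06, and 3.03 at P21 against P1, SE 0.25, adjusted p = 2.89e-06). On a scale per transcript length (TPM) over protein-coding genes, Cox4i2 stood at 41.8 ± 15.5 at P1, 281 ± 17.8 at P14 and 334 ± 45.0 at P21, beside 501 ± 17.2, 593 ± 9.20 and 512 ± 0.402 TPM for the common Cox4i1. The 10 Mueller glia markers took 0.215 to 0.573% of counts at P1, 2.12 to 2.24% at P14 and 3.88 to 4.10% at P21, and the 8 endothelial markers 0.0135 to 0.0262%, 0.137 to 0.147% and 0.172 to 0.173%, with none at 0. The 10 pericyte and smooth muscle markers went the other way after P14, from 0.417 to 0.464% at P14 to 0.0602 to 0.0903% at P21. The part of these cell types was not tested.

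Cox6b2, an isoform of subunit 6b best known from testis, rose at each step, from 10.6, 10.4 and 9.17 CPM at P1 to 14.4, 14.0 and 14.98 CPM at P14 and 23.5 and 26.5 CPM at P21. Its common partner Cox6b1 read 126, 119 and 126 CPM, then 106, 103 and 108 CPM, then 91.4 and 100.1 CPM. The 2 genes therefore moved in opposite directions. At P21 against P1 the log2 fold change was 1.32 for Cox6b2 (SE 0.10, adjusted p = 1.44e-06) and -0.37 for Cox6b1 (SE 0.06, adjusted p = 0.000348). The other tissue isoforms stayed low in development. Cox7a1 read 1.38 to 2.86 CPM and was not called, Cox6a2 stayed at or below 0.41 CPM, and Cox7b2, Cox8b and Cox8c did not exceed 0.21 CPM and were not tested.

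**Figure D4:**
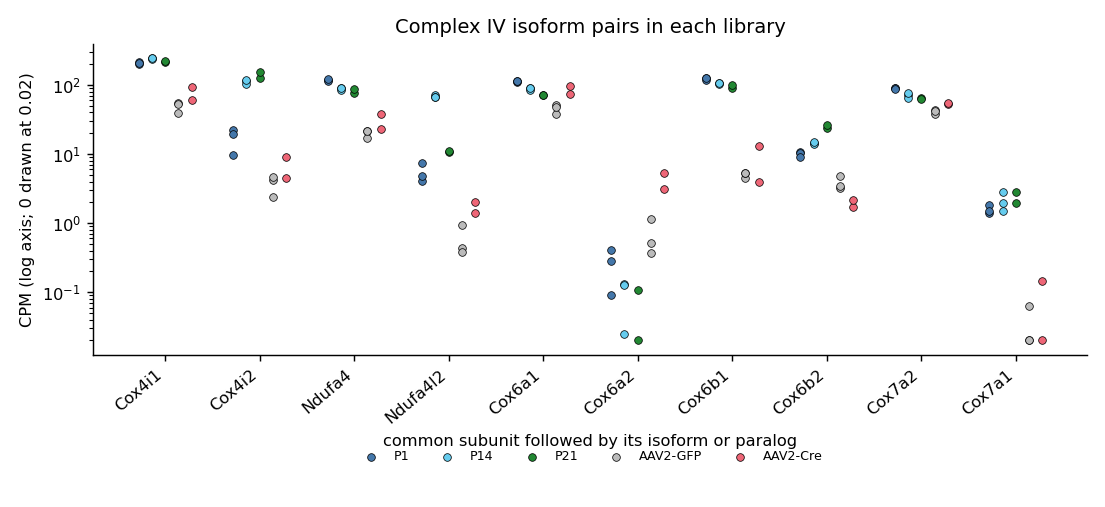
CPM (log axis) of 5 common complex IV subunits, each followed by its isoform or paralog, with 1 point per library coloured by group; libraries at 0 are drawn at 0.02. Ndufa4l2 peaks at 66.4 to 71.0 CPM in the P14 libraries, while Cox4i2 and Cox6b2 are highest at P21.

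P21 was compared with P14 to follow the module after eye opening. Here 21 nuclear members fell and 2 rose of 89, where 19.3% of all genes fell and 14.6% rose, and the median log2 fold change was -0.12 beside -0.00325 over all genes. Ndufa4l2 alone also passed a log2 fold change of 1, as did 11.9% of all genes with a call. Complex V had 7 fallers among 17 members, the common complex IV subunits 5 among 11, complex III 3 among 8 and complex I 3 among 44, with no assembly factor among them. Ndufa1, a small membrane subunit of complex I, read 46.4, 44.3 and 48.3 CPM at P14 and 34.8 and 30.4 CPM at P21 (log2 fold change -0.51, SE 0.08, adjusted p = 0.000908). Cox7a2l, a factor that joins complexes III and IV into supercomplexes, read 118, 110 and 118 CPM and then 89.5 and 90.5 CPM (log2 fold change -0.36, SE 0.06, adjusted p = 0.00132). Atp5c1, the central shaft of the ATP synthase, fell by 0.31, and Sdhd by 0.33. Cox6b2 and Ndufs7, a core subunit of complex I, were the 2 that rose, Ndufs7 from 65.0 ± 5.43 to 78.7 ± 9.80 CPM (log2 fold change 0.28, SE 0.09, adjusted p = 0.0381). None of the 11 mt- members was called by edgeR, 0 had an unadjusted p under 0.05, and DESeq2 called 0 as well.

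P21 against P1, which shares libraries with both steps, gave 27 nuclear members higher and 27 lower of 89, with a median of -0.04, beside 34.1% of all genes higher and 33.6% lower. With a log2 fold change past 1, 3 nuclear members (Cox4i2, Cox6b2 and Ndufa4l2) were called, beside 38.2% of all genes. Members of the same complex ended on opposite sides. In complex IV, Cox5a, which binds the matrix side of the enzyme, read 74.6, 73.3 and 70.6 CPM at P1 and 45.3 and 45.6 CPM at P21 (log2 fold change -0.68, SE 0.07), while Cox8a rose by 0.31. In complex V, Atp5o fell by 0.78 (SE 0.06, adjusted p = 1.33e-06) to 94.4 and 91.1 CPM, and Atp5f1, a stalk subunit, by 0.44, while Atp5d, the delta subunit of the rotor, rose by 0.36. In complex I, Ndufa1 fell by 0.91 and Ndufs7 rose by 0.78. The mt- members showed 6 higher and 0 lower of 11 with a median of 0.37, and mt-Cytb stood at 3689 and 3193 CPM at P21.

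Lists of genes around the respiratory chain give the setting of these changes, and their counts are to be read against the 33.6% of all genes that rose and the 33.6% that fell at P14 against P1. Of 22 glycolysis genes, 17 rose and 3 fell at P14, with a median of 0.82, and 19 rose and 3 fell at P21 against P1. Eno1, an enolase, rose from 887 ± 145 to 4462 ± 167 CPM, Ldha, a lactate dehydrogenase, from 271 ± 1.87 to 592 ± 17.0 CPM, and Pfkp, the platelet form of phosphofructokinase, fell by 1.04. Of 18 genes of the citric acid cycle, 5 rose and 7 fell at P14, and Cs, citrate synthase, fell by 0.84. Protein import had 4 risers and 11 fallers of 21, led by the receptor Tomm70a, which fell from 166 to 78.6 CPM on average, and mitochondrial dynamics and transport had 5 and 13 of 21, with the fusion gene Opa1 falling by 1.01 and the motor Kif5c by 2.15. Of 34 tested genes of complex assembly beyond the Ndufaf genes, 12 rose and 14 fell, with Cox14 up by 1.01. Of 25 regulators of mitochondrial biogenesis and DNA upkeep, 9 rose and 7 fell, which like the counts of the citric acid cycle and of complex assembly lies near the shares over all genes. Ppargc1b, a coactivator of OXPHOS genes, rose from 3.45 ± 0.764 to 13.7 ± 0.955 CPM and the mitochondrial DNA polymerase gene Polg from 85.4 ± 7.58 to 192 ± 0.315 CPM. Of 10 tested carriers and porins, 2 rose and 3 fell, among them Vdac3, which fell by 1.19, and Cycs, the cytochrome c gene, which fell by 0.56. These lists were written with earlier results of the data known and are described by counts alone. Of the markers above, those of Mueller glia and of endothelium took a larger share of counts at each later age. The part of these cell types in the glycolysis values was not tested.

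AAV2-Cre was compared with AAV2-GFP to ask whether Kdm6a deletion after optic nerve crush alters the module. None of the 89 nuclear members was called by edgeR, where 1.33% of 18395 genes were higher, 0.294% lower and 1.34% called past a log2 fold change of 1. At an unadjusted p under 0.05 there were 13 of the 89 nuclear members, beside 16.5% of all genes. By this count, which takes both directions together, the members did not exceed the background. DESeq2 called 5 nuclear members higher, beside 767 of 28763 genes. The median log2 fold change was 0.24 over nuclear members and -0.03 over all genes. Cox6a1 read 74.3 and 97.7 CPM with AAV2-Cre and 51.2, 37.9 and 48.1 CPM with AAV2-GFP (log2 fold change 0.91, SE 0.20, adjusted p = 0.0651). Ndufa1 read 7.77 and 8.61 CPM against 2.90, 1.60 and 2.12 CPM (log2 fold change 1.89, SE 0.43, adjusted p = 0.0703). For both genes the groups did not overlap, and neither passed the threshold. The muscle isoform Cox6a2 read 3.08 and 5.27 CPM against 1.16, 0.51 and 0.37 CPM (adjusted p = 0.117). Over the 11 common complex IV subunits the median log2 fold change was 0.60, over the 29 accessory subunits of complex I it was 0.36 and over the 8 assembly factors 0.02.

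One mt- member, mt-Co2, was called. It read 26.8 and 45.9 CPM with AAV2-Cre and 13.4, 12.7 and 10.1 CPM with AAV2-GFP (log2 fold change 1.59, SE 0.28, adjusted p = 0.0350). This is a gene of the copied block, it rested on 161 to 715 counts per library, and the call was lost when any AAV2-GFP library was left out. Over all genes, 121, 86 and 253 were higher without AAV2-GFP replicate 1, 2 and 3, beside 244 with all 5 libraries. Leaving out an AAV2-Cre library leaves 1 in that group, so no call is read from it. mt-Co3, its neighbour in that block, read 17.2 and 23.3 CPM against 11.4, 8.09 and 7.30 CPM (adjusted p = 0.0924). mt-Co1, which encodes the catalytic subunit of the same enzyme and shares 30.8% of its stretches, read 3767 and 3263 CPM against 2991, 2661 and 1970 CPM (log2 fold change 0.47, SE 0.19, adjusted p = 0.266). Without the 6 genes that share at least 50% of their stretches with a copy, 0 of 7 tested mt- members were called, with mt-Atp8 and mt-Co1 among the 7. Beside these values, rod markers took 1.33 and 2.83% of counts in the AAV2-Cre libraries and 2.96 to 3.47% in the AAV2-GFP libraries, none of the 11 at 0, T and NK cell markers 0.0466 to 0.0748% and 0.0224 to 0.0409%, and B cell markers 0.0549 to 0.115% and 0.0253 to 0.0469%. Their part in these differences was not tested. Of the 7 lists around the chain, none had a called gene.

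The injured adults and the development series differ in dataset, age, injury, virus and genotype at the same time, which cannot be told apart, so levels across them are a description on 1 scaling of all 13 libraries. Of 90 nuclear members with at least 130 counts, 60 were lower in every adult library than in every development library and 10 were higher, beside 29.1% and 24.1% of all genes. Of the 10 members that stood higher, Ndufs1 and Ndufs3 are core subunits and Ndufaf4 and Ndufaf7 assembly factors of complex I. The others were Sdha, Sdhd, Uqcrc1, Atp5b, Atp5c1 and Atp5s. The complex I core subunits Ndufs7, Ndufs8 and Ndufv2, the iron-sulfur subunits Sdhb and Uqcrfs1, and Atp5a1 of complex V were among the 60 lower members. Sdha read 635 to 765 CPM in the adults and 146 to 266 CPM in development, Uqcrc1 439 to 555 and 151 to 177 CPM, and Atp5b 1474 to 2006 and 766 to 898 CPM. Several small subunits of complexes III, IV and V stood far lower. Cox6b1 read 3.76 to 12.7 CPM in the adults against 92.4 to 130 CPM, Uqcr10 2.11 to 3.67 against 40.6 to 62.1 CPM, and Atp5k 1.32 to 6.14 against 38.6 to 52.4 CPM. Subunits of a complex thus kept no common ratio between the datasets.

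Among the nuclear members, the ratio between the datasets went with the median length of a gene's annotated coding transcripts. This median can lie far from a given transcript. Ndufb2 was placed at 2413 bases although its nearest coding transcript has 455, and Atp5g1 at 2675.5 although its nearest has 691. Uqcrc1 was placed at 533 bases although its exons span 4135. The classes below are therefore approximate. For AAV2-GFP over P21, the log2 ratio of 89 nuclear members had Spearman's rho of 0.56 with the median length of a gene's coding transcripts, a description across genes that share libraries. The median log2 ratio was -2.47 for the 31 members under 600 bases, -1.09 for the 34 from 600 to under 1000 bases, 0.27 for the 20 from 1000 to under 2000 bases and -0.25 for the 4 from 2000 bases up. Over all protein-coding genes in the same length classes it was -0.70, -0.37, 0.01 and, from 2000 to under 4000 bases, 0.06. The class medians over all genes thus rose with length as well, up to 4000 bases. For the 2797 genes of 4000 bases or more, a class that held 0 members, the median was -0.59. With that class included, rho over all 15042 genes was -0.03. Within the injured dataset, the log2 fold change of AAV2-Cre against AAV2-GFP had a rho of -0.31 with length over 89 members and -0.12 over 14590 genes. Members under 600 bases had a median of 0.50 there and all genes of that length 0.11. At P14 against P1 rho was -0.26 over the members and -0.07 over 15699 genes. The mt- members split as well. mt-Nd2 read 109 to 137 CPM in the adults against 714 to 1151 CPM in development, while mt-Co2, mt-Co3, mt-Atp6 and mt-Atp8 were higher in every adult library than in every development library. Whether RNA or library quality had a part in this was not tested.

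**Figure D5:**
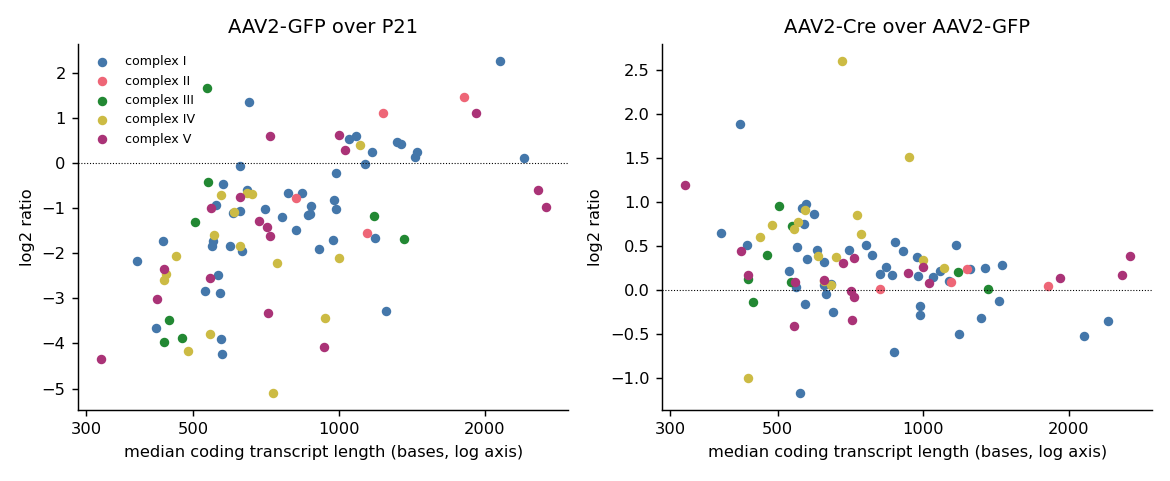
Log2 ratio of nuclear members against the median length of their coding transcripts (log axis, bases), for AAV2-GFP over P21 (left) and for AAV2-Cre over AAV2-GFP (right), with 1 point per gene coloured by complex. On the left the points climb with length (rho 0.56), and on the right they decline (rho -0.31).

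Promoters of nuclear members were searched for short motifs of factors known to control OXPHOS genes, since members with opposite courses could differ in them. A RefSeq promoter (GRCm38.p6, 300 bases, of which 250 lie before the start) was held for 74 of 93 nuclear members, and none for others, among them Atp5a1, Atp5f1, Atp5mpl, Atp5s, Cox4i1, Cox4i2, Cox6a2, Cox6c, Cox8c, Ndufa2, Ndufa4l2, Ndufaf6, Ndufb9, Ndufs1, Sdhc, Uqcrb, Uqcrc2 and Uqcrq. The NRF1 core GCGCATGC, on either strand, was present in 12 of 74 members (16.2%) and in 3.94% of 17492 protein-coding genes. It was held by 4 of the 26 members that rose at P14 and by 4 of the 16 that fell. The YY1 core AAGATGG was present in 14.9% of members and 7.18% of all genes, the ERR site AAGGTCA in 10.8% and 4.73%, the ETS motif CCGGAAGT in 6.76% and 5.69%, and the hypoxia element core ACGTG in 23.0% and 23.2%. The ETS motif was held by 4 of the 26 risers and 0 of the 16 fallers, the ERR site by 3 and 0, the YY1 core by 4 and 1, and the hypoxia element core by 7 and 4. These counts are small and their differences were not tested. Relative to all promoters the NRF1 core was the most frequent of these 5 motifs among the members. The promoters of 2 members that rose (Atp5k, Uqcr11) and 2 that fell (Cox6a1, Ndufaf4) are shown as examples of the same motif in both. Capitals mark the motif letters on either strand, and runs of GCGCATGCGC are the NRF1 core overlapping its own reverse complement. The capitals near the end of the Atp5k promoter are the ERR site, and Uqcr11 also holds a hypoxia element core and an ETS motif before its NRF1 core.

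Atp5k (chr5:108434350-108434649, minus strand): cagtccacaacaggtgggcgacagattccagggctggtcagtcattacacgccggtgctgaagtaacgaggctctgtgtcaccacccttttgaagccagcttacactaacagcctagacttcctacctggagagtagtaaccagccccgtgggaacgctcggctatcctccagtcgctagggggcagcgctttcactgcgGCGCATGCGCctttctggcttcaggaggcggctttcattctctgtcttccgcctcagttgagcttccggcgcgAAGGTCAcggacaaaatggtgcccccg
Uqcr11 (chr10:80406772-80407071, minus strand): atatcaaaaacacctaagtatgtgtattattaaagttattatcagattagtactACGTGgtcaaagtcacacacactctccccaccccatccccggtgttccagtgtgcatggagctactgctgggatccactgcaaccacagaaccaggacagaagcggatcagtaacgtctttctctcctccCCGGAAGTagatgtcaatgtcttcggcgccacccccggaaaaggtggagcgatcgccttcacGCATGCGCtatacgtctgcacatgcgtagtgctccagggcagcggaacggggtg
Cox6a1 (chr5:115348909-115349208, minus strand): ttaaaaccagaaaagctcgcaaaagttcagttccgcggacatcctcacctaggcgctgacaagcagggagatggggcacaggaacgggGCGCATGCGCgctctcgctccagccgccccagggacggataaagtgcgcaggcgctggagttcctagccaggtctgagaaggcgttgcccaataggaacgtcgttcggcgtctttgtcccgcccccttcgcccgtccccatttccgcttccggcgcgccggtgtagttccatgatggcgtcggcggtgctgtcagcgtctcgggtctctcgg
Ndufaf4 (chr4:24897833-24898132, plus strand): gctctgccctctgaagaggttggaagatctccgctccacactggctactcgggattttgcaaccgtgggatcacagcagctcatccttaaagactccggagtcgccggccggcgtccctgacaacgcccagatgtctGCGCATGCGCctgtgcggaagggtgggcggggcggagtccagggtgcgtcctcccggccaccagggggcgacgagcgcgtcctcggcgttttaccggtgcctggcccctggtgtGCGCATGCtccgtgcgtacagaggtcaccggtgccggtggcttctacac

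A motif match describes letters in a window and does not show that a factor binds there. Atp5k, a small subunit of the ATP synthase membrane part, rose from 39.4 ± 2.01 to 46.2 ± 3.66 CPM at P14, beside Cox6a1 and Ndufaf4, which fell with the same core in their promoters.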

How the data were processed

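Counts of 13 libraries were used, grouped by GEO's labels. The values are raw counts per gene deposited by the authors. Per the labels and methods, read quality was assessed (FastQC 0.11.9), leading bases were removed (Trimmomatic 0.39), HISAT2 2.2.1 placed the reads on GRCm38 and featureCounts of Subread 2.0.3 assigned them to genes; strand and multimapping settings are not given in the sources used here. Gene names came from GENCODE M21 for 52403 IDs, and 147 had none. The 8 development and the 5 injured libraries were fitted apart in R 4.3.3 with edgeR 4.0.16 (TMM, filterByExpr, glmQLFit and glmQLFTest), with a biological coefficient of variation of 0.109 and 0.340. A call is an adjusted p under 0.05 over all genes tested. 100 of 106 members passed the low-count filter in each fit. The fits were tested on simulated data. Replicates differed by more than sampling noise. Alternatives were DESeq2 1.42.0, other scalings and filters, all 13 libraries in 1 fit, a replicate block and each library left out.

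The members and lists were chosen with earlier results of these data known. The text names every mt- member, the 6 called nuclear members with the smallest p per direction and comparison, the isoform pairs, the Sdh genes, per complex the member with the highest CPM and the largest change, and leading genes of the lists; other genes were chosen after their values were seen, and a result that this rule covers is not reported here. CPM values are on the scale of the fit that tests them, except across datasets, where 1 TMM scaling was used. TPM used the median length of a gene's coding transcripts.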

Additional observations from a re-analysis of the deposited data

How the results depend on the processing

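The counts of called members moved with the scaling and the fit. Scaling by library size alone raised the median of all genes at P14 against P1 from -0.01 to 0.11; with it, 9 nuclear members fell and the medians were 0.24 for nuclear and 0.41 for mt- members, while at P21 against P14 1 nuclear member rose and 35 fell, and at P21 against P1 the nuclear median changed sign to 0.0245. With all 13 libraries in 1 fit, 17 nuclear members rose and 3 fell at P14 against P1, 1 and 5 at P21 against P14, 11 and 13 at P21 against P1, and 17 and 3 differed for AAV2-Cre against AAV2-GFP, with 3 mt- members higher and an mt- median of 0.51. For AAV2-Cre against AAV2-GFP, nuclear members higher numbered 5 with DESeq2, 7 with no low-count filter and 2 with at least 10 counts in every library, where 767 of 28763, 969 of 28763 and 378 of 14906 genes were higher (1433 higher and 1071 lower of 23844 in the fit of 13 libraries); mt- members higher numbered 2 with DESeq2 and 2 with no filter, with mt- medians of 0.48 and 0.48. The cause was not tested. Deviations of libraries with the same replicate number correlated between -0.05 and 0.02. In groups of 2 libraries the deviations mirror each other, so these values cannot settle whether libraries are paired. With a replicate block 0 mt- members were called for AAV2-Cre against AAV2-GFP, with an mt- median of 0.13, and no other call count moved by over 1.5 times. With single libraries left out, the mt- median ran from 0.15 to 0.38 for AAV2-Cre against AAV2-GFP (0.15 without AAV2-GFP replicate 3) and from 0.22 to 0.42 at P14 against P1. With any AAV2-GFP library left out, 0 mt- members were higher. At P21 against P14, 1 to 4 nuclear members rose (4 without P1 replicate 3 or P21 replicate 1), and 0 to 1 mt- members rose (1 without P21 replicate 2) and 0 to 1 fell, as 0 to 1 fell at P21 against P1 (1 without P21 replicate 1). An alternative chosen after seeing the data left out the mt- members with a near-identical copy: the mt- medians became 0.38, 0.0138 and 0.49 at P14 against P1, P21 against P14 and P21 against P1, and 0 were called higher for AAV2-Cre against AAV2-GFP. Without mitochondrial ribosomal RNAs the nuclear share was 0.688% with AAV2-Cre; for subunits alone it was 0.670% with AAV2-Cre and 0.671% at P1, with a ratio of 1.24 with AAV2-Cre. These values are counts, medians and shares, which cannot show whether the call of a single member reversed. The other 398 stayed within 1.5 times for counts. Medians and shares among them differed from the reported value by less than the spread between libraries. For medians of the alternative chosen after seeing the data, the limit was the median SE. The direction of medians was checked only there. The injured libraries limit precision most, with a coefficient of variation of 0.340 against 0.109 in development, and 2 or 3 libraries a group.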
